A study of Homo sapiens with 38 samples.

Results

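The genes described here were 8 core pluripotency factors, POU5F1 (which encodes OCT4), NANOG, SOX2, SALL4, PRDM14, ZFP42 (which encodes REX1), LIN28A and LIN28B, taken from the count table by their symbols out of the 57133 genes it lists. All 8 passed the filter on low counts, which kept 16674 genes. RNA was profiled by QuantSeq, a 3′ tag method that reads transcripts near their polyadenylated end, in 38 libraries of Shef6, an established human embryonic stem cell line. Naive cells grew in PXGL, a medium with LIF and inhibitors of MEK, tankyrase and PKC, either on a serum coating (PXGL_serum) or on the basement membrane extract Geltrex (PXGL_Geltrex). In all groups the cells derived from naive cells that had been adapted to the serum coating. All differentiation took place on Geltrex, in the basal medium N2B27, in the commercial media E8 and mTeSR, or in N2B27 to which XAV939, a tankyrase inhibitor, was added alone (XAV) or with FGF2 and Activin A (FAX).

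The first experiment (Ex1, 30 libraries) covered both naive substrates, 5 days of N2B27 and of E8 (2, 3, 4, 6 and 8), and mTeSR from day 4 on (4, 6 and 8). The second (Ex2, 8 libraries) covered naive cells on Geltrex and 3 media at day 4, N2B27, XAV and FAX. The labels of the naive pair of Ex2 disagree on its day: titles and time points say day 0, as used here, but the library names say day 4, while those of the naive cells of Ex1 give no day. Each of the 19 groups held 2 libraries, so that pooling by medium and day gave 16 levels with 6 naive libraries, 4 of N2B27 at day 4 and 2 of each other level. All libraries came from 1 cell line. The study calls its replicates technical in some places and biological in another, so p-values measure the spread between libraries, which may be technical.

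OCT4, SOX2 and NANOG form the transcription factor core of pluripotency: OCT4 and SOX2 bind DNA as a pair, often on adjoining sites, and NANOG shares many of their targets. SALL4 is a zinc finger partner of this core, PRDM14 a DNA-binding repressor of differentiation genes, and REX1 a zinc finger protein long used as a marker of undifferentiated cells. LIN28A and LIN28B are RNA-binding proteins that block the maturation of the let-7 microRNAs, and let-7 in turn represses LIN28 transcripts.

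The libraries held 3038046 to 5612354 counts. The 8 genes were far above the detection floor of 3 counts in every library, with PRDM14 lowest at 29 to 223 counts and a minimum of at least 349 for each of the others. Naive markers (8 genes such as KLF17 and DPPA5) summed to 1304 to 1779 CPM in naive libraries and to 464 to 494 CPM at day 8 of N2B27, whereas 7 primed or formative markers such as ZIC2 and SFRP2 went from 21.9 to 29.9 CPM to 701 to 804 CPM, as their labels say. There were 2 sets of libraries that stood apart. The first was 4 libraries (replicate 2 of N2B27 day 2, both of E8 day 2 and replicate 1 of E8 day 3) that scored between -2.76 and -2.37 on a library score, which is the main axis along which replicates differ, found without the 8 genes and scaled to SD 1, while the other 34 lay between -1.07 and 1.36. The second was the naive pair of Ex2, which differed from the Geltrex pair of Ex1 in 7 of the 8 genes (adjusted p under 0.05, beside 15.2% of all genes), as given further on. In bulk RNA, fewer cells expressing a gene and less RNA of it per cell cannot be told apart.

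On GRCh38 with GENCODE release 44, POU5F1 lies at chr6:31164337-31180731 (minus strand), NANOG at chr12:7787794-7799146 (plus), SOX2 at chr3:181711925-181714436 (plus), SALL4 at chr20:51782331-51802521 (minus), ZFP42 at chr4:187995771-188005046 (plus), LIN28A at chr1:26410817-26429728 (plus) and LIN28B at chr6:104936616-105083332 (plus). All are protein-coding. Because reads come from transcript ends, the last 300 bases of each canonical transcript were searched against all transcripts. For POU5F1, 279 of 286 aligned bases (97.55%) were shared with POU5F1B, a retrogene copy, so that reads of the 2 genes may have been split between them and each is uncertain. NANOG, SOX2, ZFP42, LIN28A and LIN28B had no such match in these bases, and the matches of SALL4 and PRDM14 with other genes were 47 bases or shorter, or under 82% identical. Ends at other polyadenylation sites were not searched, so whether reads from those are shared is not known.

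Letters that OCT4 and SOX2 bind were sought in the promoters of the members. PRDM14 was left out of this search. The RefSeq table of promoters (GRCh38.p14) gives 250 bases before to 50 bases after each start. Of the other members it held 4, NANOG, SOX2, ZFP42 and LIN28B. Each was searched on both strands for TTTGCAT, part of the octamer that OCT4 binds, and for CATTGT, letters bound by SOX2 (ACAATG on the other strand). NANOG held both, at positions -120 and -112 from its start and 1 base apart, in this stretch of the plus strand at chr12:7789258-7789317, where the capitals mark the 2 motifs:
NANOG: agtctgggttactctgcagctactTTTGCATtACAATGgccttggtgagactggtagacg
The adjoining pair occurred in 3 of 35116 promoters (0.009%), the first motif alone in 4.462% and the second in 10.781%. The SOX2 promoter held TTTGCAT at -100, 1 of the 2 LIN28B promoters held the SOX2 letters at -140, and the ZFP42 promoter held neither. These are matches of letters, not measured binding.

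Letters that let-7 binds were sought in the 3′ ends. The 8 let-7 microRNAs from let-7a-5p to let-7i-5p in the RefSeq table share the seed GAGGUAG (bases 2 to 8, in capitals), as in these 2:
let-7a-5p: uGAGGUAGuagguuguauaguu
let-7g-5p: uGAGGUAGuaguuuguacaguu
The matching letters CTACCTC occurred 4 times in the 3′ UTR of LIN28B, once in that of LIN28A and once in that of SALL4, and in none of the other 5 members (GENCODE 44 canonical transcripts). Of 19136 3′ UTRs, 9.966% held at least 1 such match and 0.063% held 4 or more. The sites of the plus strand genes LIN28A (chr1:26427348-26427370) and LIN28B (sites 1 and 3 of its 4, chr6:105078812-105078834 and chr6:105081421-105081443) and of the minus strand gene SALL4 (chr20:51782923-51782945) read as follows, with the seed match in capitals:
LIN28A: gcacagcctattgaaCTACCTCa
LIN28B site 1: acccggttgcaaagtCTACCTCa
LIN28B site 3: gtttacagcaaaaggCTACCTCa
SALL4: aaagctttaatttatCTACCTCa
Mature let-7 is not read by this protocol, so its level is not known here.

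The first question was how the factors moved as cells left the naive state. Calls required a log2 fold change beyond 1 in either direction together with a p, adjusted over the 16674 genes by Benjamini-Hochberg, below 0.05 (edgeR quasi-likelihood F-test). LIN28A was higher than in naive cells at all 15 combinations of medium and day. PRDM14 was called lower at days 6 and 8 of N2B27 and of E8. With an adjusted p under 0.05 it was also lower at day 2 of E8 and day 4 of both. POU5F1 was called higher at day 2 of N2B27 and days 2 and 3 of E8, calls that did not remain with a library score as a covariate. NANOG, SOX2, SALL4, ZFP42 and LIN28B stayed within a log2 change of 1 in every comparison with the 6 naive libraries. In N2B27, 1, 0, 0, 2 and 2 of the 8 members were called at days 2, 3, 4, 6 and 8, where 16.2%, 15.6%, 18.4%, 23.1% and 23.9% of all genes were. In E8 the counts were 1, 2, 0, 2 and 2 beside 24.6%, 17.8%, 20.8%, 23.3% and 27.5% of all genes. In mTeSR they were 0, 1 and 1 at days 4, 6 and 8 beside 19.8%, 22.5% and 25.1%. At day 4 none of the 8 was called in XAV or in FAX, beside 17% and 17.1% of all genes, and 2 members in each (NANOG and LIN28A) had an adjusted p under 0.05, as 33.4% and 34.1% of all genes had. Against the naive pair of Ex2 alone, 4 members in XAV (NANOG, SOX2, SALL4 and LIN28A) and 7 in FAX (all but POU5F1) did, beside 37.7% and 39.7% of all genes. SALL4 was then called in both, as 19.5% and 20.9% of all genes were. With naive controls of the matching experiment, 7 of 40 member differences in N2B27 were called, beside 14.8%, 15.2%, 19.3%, 24.9% and 25.5% of all genes by day. The number was 10 of 40 in E8, beside 23.7%, 17.8%, 20.5%, 24.2% and 28.5%, and 4 of 24 in mTeSR, beside 19.6%, 23.8% and 26.7%. With 0 to 2 calls among 8 genes in each comparison with all 6 naive libraries, these counts lie near the background, so the number of calls is no result about them. All 15 comparisons share the 6 naive libraries.

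**Figure D1:**
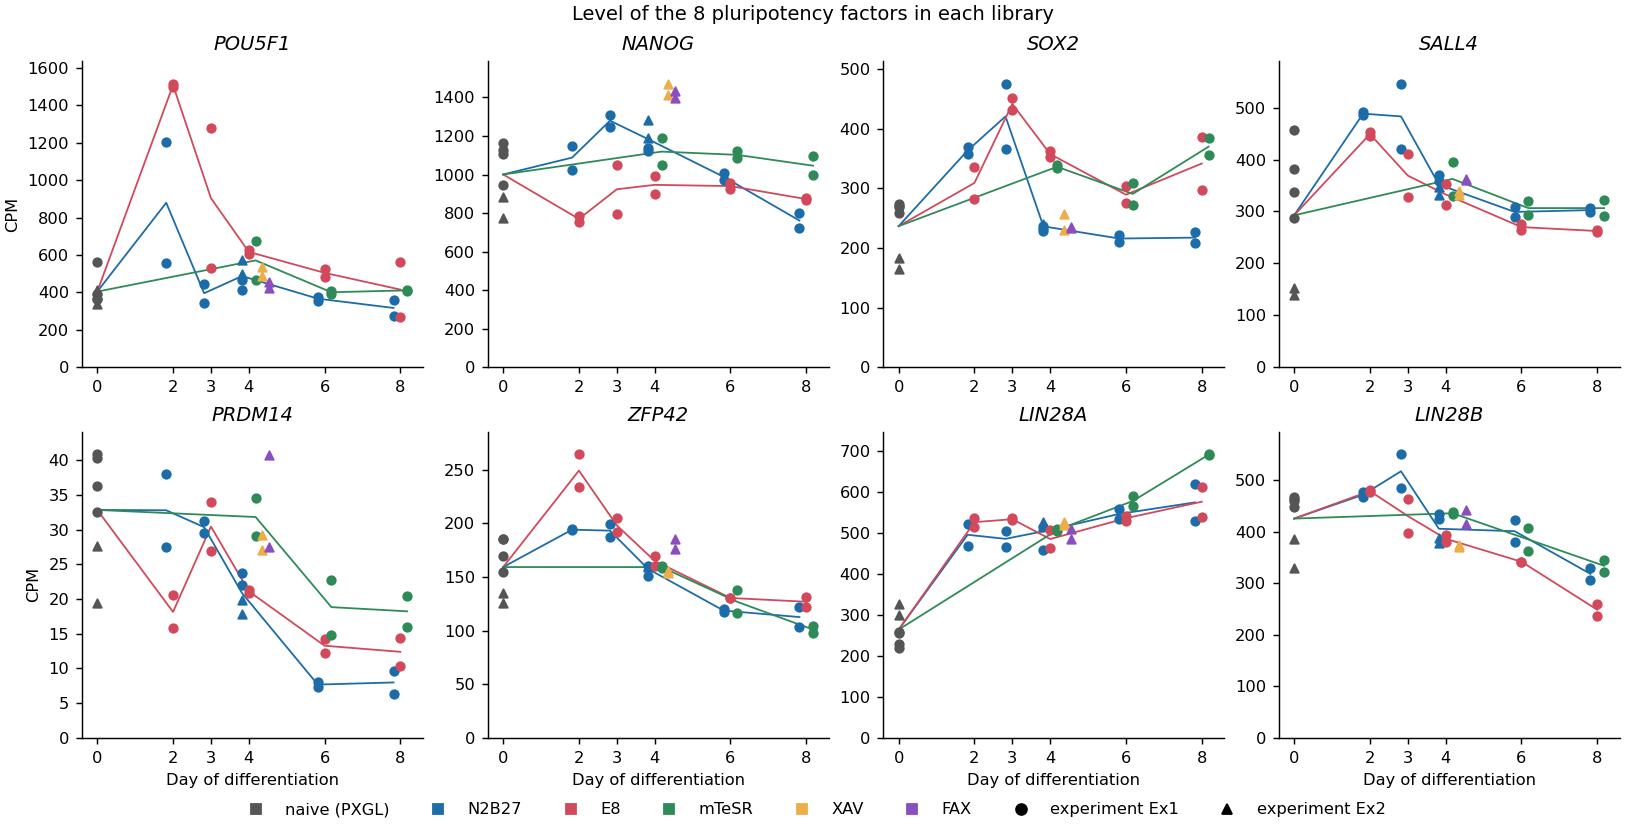
CPM (counts scaled to TMM-adjusted library totals) of each of the 8 genes in every library against the day of differentiation, with naive cells at day 0, colours for media and circles and triangles for the 2 experiments. Lines join the means of N2B27, E8 and mTeSR, starting at the mean of the 6 naive libraries, and LIN28A is the 1 panel in which all 32 differentiating libraries (458 CPM or more) lie above all naive libraries (325 CPM or less).

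**Figure D2:**
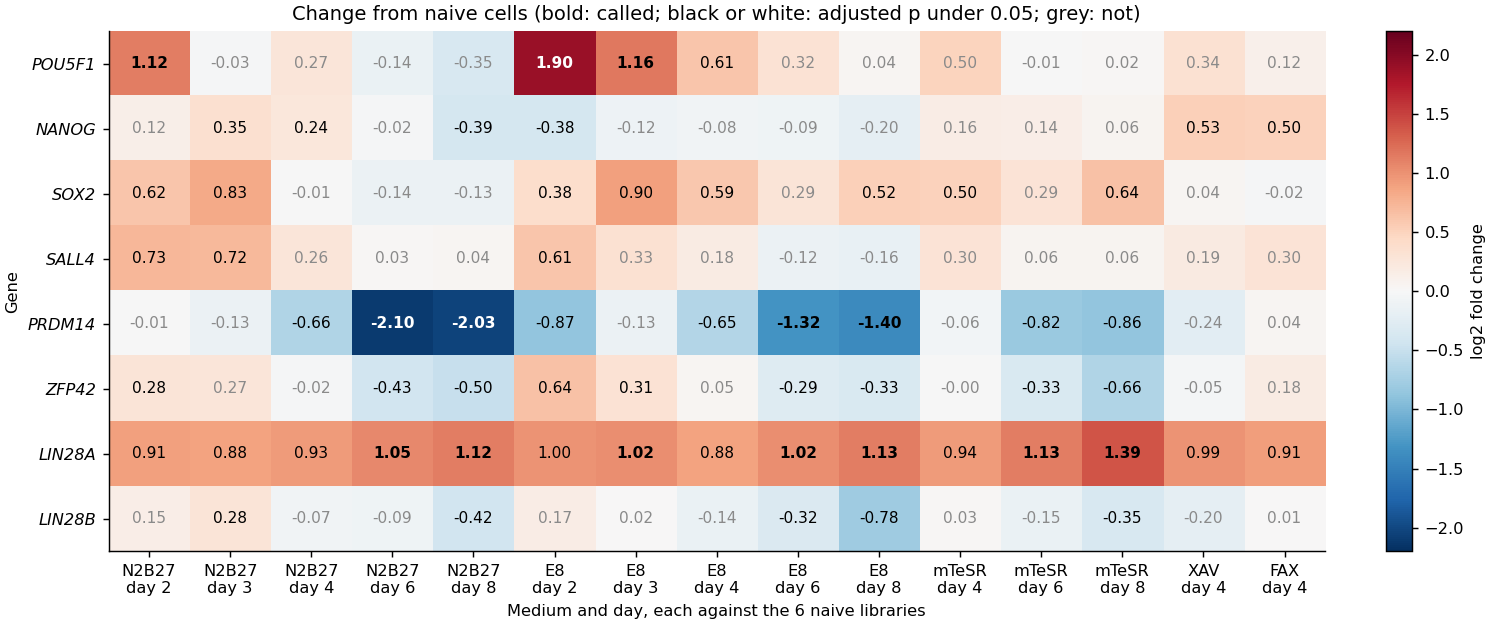
Log2 fold change of the 8 genes (rows) at each medium and day (columns) against the 6 naive libraries, with red for higher and blue for lower. Bold numbers were called, other black numbers had an adjusted p under 0.05 and grey numbers did not; the calls run from POU5F1 in E8 at day 2 (1.9) to PRDM14 in N2B27 at day 6 (-2.10).

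POU5F1 encodes the factor without which pluripotency is lost in culture. In the 6 naive libraries it lay between 336 and 560.5 CPM with a median of 377. At day 2 of N2B27 its 2 libraries read 555 and 1203 CPM, and at day 2 of E8 1515 and 1500.0 CPM. The E8 pair was far above every naive library, whereas of the N2B27 pair replicate 1 lay just inside the naive range. The log2 fold change against naive cells was 1.9 ± 0.23 (SE) in E8 at day 2, 1.16 ± 0.23 (SE) in E8 at day 3 and 1.12 ± 0.23 (SE) in N2B27 at day 2 (adjusted p = 2.76e-08, 0.000149 and 0.000297). At day 3 the E8 pair read 1279 and 529 CPM, which differ 2.42-fold, the widest replicate pair of this gene. From day 4 on, no library exceeded 677 CPM, and in the 11 comparisons of days 4 to 8 the log2 fold change ran from -0.35 to 0.61, with only E8 day 4 past an adjusted p of 0.05 (0.0389).

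The POU5F1 readings moved with the library score. The 4 libraries with the lowest scores held 1203 to 1515 CPM of POU5F1, the other 34 held 270 to 677 CPM, and mitochondrial genes took 3.39% to 3.63% of the counts of the first set and 1.86% to 3.48% of the second. With the score as a covariate the log2 fold change against naive cells was 0.81 in E8 at day 2 (adjusted p = 0.00444), 0.59 in E8 at day 3 (0.00430) and 0.26 in N2B27 at day 2 (0.359), so none of the 3 remained called. When replicate 1 of E8 day 3 was left out, the change there was 0.38, and without replicate 2 of N2B27 day 2 it was 0.47 at that day, neither past an adjusted p of 0.05. The part of the score in the result was not tested further. Between replicates POU5F1 had an SD of 0.36 on the log2 scale, above that of 99.3% of the 599 genes within a factor of 2 of its level, while the SDs of the other 7 members ran from 0.07 for LIN28A to 0.25 for PRDM14.

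POU5F1B was listed at 586 to 1168 CPM, above POU5F1 in 34 of the 38 libraries, the 4 exceptions being those with the lowest scores. POU5F1 made up 28.9% to 42.7% of the sum of the pair in the 34 libraries and at least 52.3% in the 4. The sum itself read 2548 and 2459.6 CPM at E8 day 2 and 1077 to 1442 CPM in naive cells. When the counts of the pair were added into 1 gene, an alternative chosen after seeing the data, the change at E8 day 2 was 1.03 (adjusted p = 5.02e-06) and stayed a call, while those at E8 day 3 (0.63) and N2B27 day 2 (0.55) kept an adjusted p under 0.05 but no longer passed the fold threshold.

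**Figure D3:**
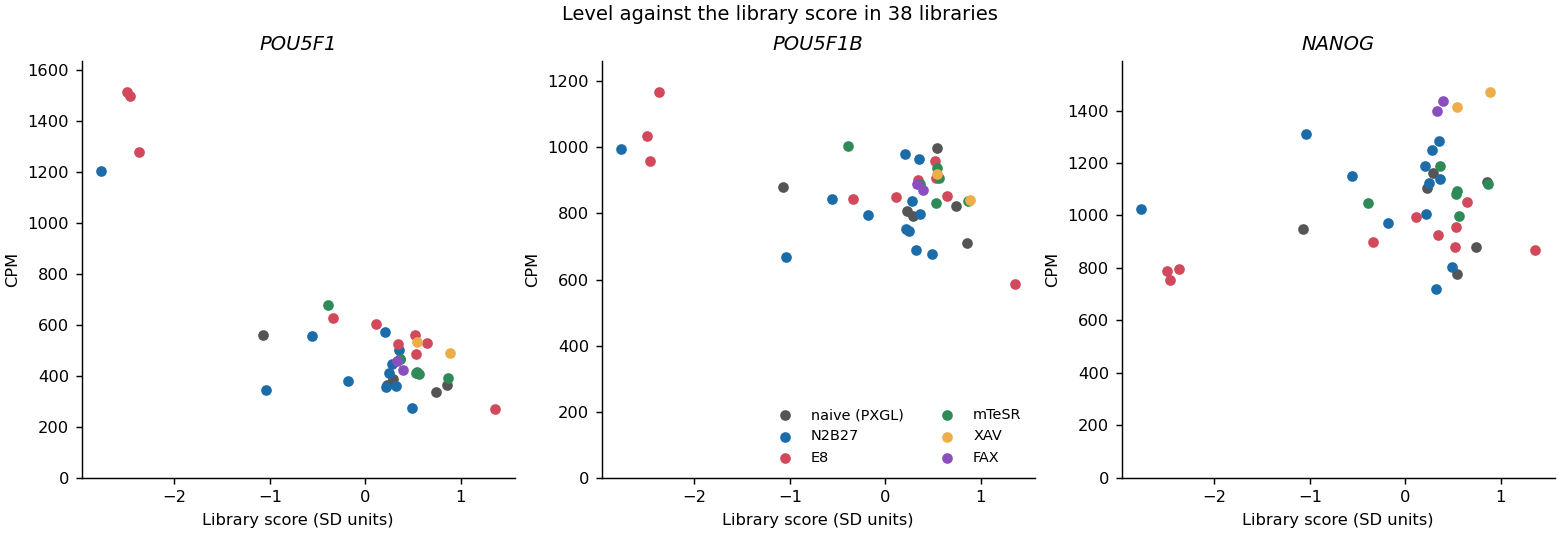
CPM of POU5F1, POU5F1B and NANOG in each of the 38 libraries against its library score in SD units, coloured by medium. The 4 libraries at the left (scores of -2.37 or lower) hold 1203 to 1515 CPM of POU5F1, and the other 34 hold 677 CPM or less.

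SOX2 encodes the partner with which OCT4 binds DNA. It lay between 166 and 274 CPM with a median of 264 in naive libraries. It read 358 and 370.0 CPM at day 2 and 476 and 366 CPM at day 3 of N2B27, all above the naive range, and the 4 libraries of day 4 were back at 229 to 241 CPM. In E8 it read 452 and 432 CPM at day 3, 363 and 353 CPM at day 4 and 297 and 387 CPM at day 8, and in mTeSR 385 and 356 CPM at day 8, pairs that lay above the naive range. At day 6 it read 275 and 304 CPM in E8 and 309.7 and 272 CPM in mTeSR, where 1 mTeSR library was inside that range. The log2 fold change against naive cells was 0.83 ± 0.13 (SE) in N2B27 at day 3, 0.90 ± 0.13 (SE) in E8 at day 3 and 0.64 ± 0.13 (SE) in mTeSR at day 8 (adjusted p = 7.41e-06, 1.47e-06 and 0.000173). In all, 8 of the 15 comparisons had an adjusted p under 0.05, each with SOX2 higher, and none passed the fold threshold. Set against its own experiment's naive libraries, SOX2 was lower at days 6 and 8 of N2B27, at -0.31 and -0.30 on the log2 scale (adjusted p = 0.0105 and 0.0130), and higher in XAV and FAX, at 0.48 and 0.43 (0.00142 and 0.00414). Day 2 of E8 then no longer passed (adjusted p = 0.0886), nor did it when the score was added to the fit (0.11, adjusted p = 0.712). Without replicate 2 of N2B27 day 3 the change at that day was 1.00, just past it.

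Of 9 other genes of the SOX family list (8 SOX factors and SOX2-OT, the transcript that overlaps SOX2), 8 were tested, and 3, 3 and 4 were called higher and 2, 1 and 0 lower at day 8 of N2B27, E8 and mTeSR, where 23.9%, 27.5% and 25.1% of all genes were called in either direction. SOX11, a factor of neural and mesenchymal progenitors, rose from 1.37 ± 0.464 CPM (SD, n = 6) in naive cells to 188 ± 18.8 CPM (SD, n = 2) in N2B27, 209 ± 47.9 CPM (SD, n = 2) in E8 and 291 ± 31.4 CPM (SD, n = 2) in mTeSR. SOX3, of the same subgroup as SOX2, rose by 5.13 ± 0.28 (SE) on the log2 scale in N2B27, 5.64 ± 0.27 (SE) in E8 and 5.57 ± 0.28 (SE) in mTeSR. The median of the list was 0.26 at day 8 of N2B27, beside -0.03 for all genes. None of the 3 tested genes among 8 OCT4 paralogs and copies was called at day 8 of N2B27, E8 or mTeSR.

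NANOG, the homeobox factor whose promoter carries the adjoining OCT4 and SOX2 letters shown above, lay between 777 and 1163 CPM with a median of 1026 in naive libraries. It was highest at day 4 in XAV, with 1415 and 1471 CPM, and in FAX, with 1435 and 1397 CPM, and lowest at day 8 of N2B27, with 802 and 721 CPM. At day 2 of E8 it read 787 and 753 CPM, below 5 of the 6 naive libraries in both replicates. The log2 fold change against naive cells was 0.53 ± 0.11 (SE, adjusted p = 0.000223) in XAV, 0.50 ± 0.11 (SE, adjusted p = 0.000440) in FAX, -0.39 ± 0.11 (SE, adjusted p = 0.00498) at day 8 of N2B27 and -0.38 ± 0.12 (SE, adjusted p = 0.00732) at day 2 of E8, none past the fold threshold. Relative to the naive pair of Ex2, the values of XAV and FAX were 0.80 and 0.77. The value at day 2 of E8, where both library scores were low, was -0.15 with the score as a covariate (adjusted p = 0.475). Across the 19 replicate pairs, the log2 difference between replicates had r = -0.805 between POU5F1 and NANOG, a description only, since pairs share the scaling of their libraries. NANOGP1, a duplicated pseudogene on the chromosome of NANOG, at chr12:7892576-7898903, fell in all 3 media: from 63.9 to 81.9 CPM in naive libraries it came to 20.5 and 17.3 CPM at day 8 of N2B27, 13.3 and 10.6 CPM of E8 and 14.4 and 15.1 CPM of mTeSR (log2 fold change -1.96 ± 0.18 (SE), -2.61 ± 0.19 (SE) and -2.31 ± 0.19 (SE), each called).

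SALL4, which stabilises the OCT4 network, was the member whose naive level differed most between the experiments. Naive libraries of Ex1 held 456, 383, 338 and 287 CPM, and those of Ex2 138 and 153 CPM. The Ex2 pair was below every other library of the series for this gene. At day 2 SALL4 read 491 and 486 CPM in N2B27 and 453 and 445 CPM in E8, and by day 8 306 and 299 CPM and 261 and 263 CPM. Against all naive libraries it was higher at days 2 and 3 of N2B27 (0.73 ± 0.22 (SE, adjusted p = 0.0103) and 0.72 ± 0.22 (SE, adjusted p = 0.0127) on the log2 scale) and day 2 of E8 (0.61 ± 0.23 SE, adjusted p = 0.0262). With the score added to the fit these were 0.38, 0.60 and 0.06 (adjusted p = 0.294, 0.0223 and 0.904). When each group was set against its own experiment's naive libraries, they were 0.42, 0.40 and 0.30 (adjusted p = 0.00606, 0.00829 and 0.0415). Day 4 of N2B27 was then 0.60 and day 6 -0.29 (adjusted p = 2.07e-06 and 0.0467), days 6 and 8 of E8 were -0.44 and -0.48 (adjusted p = 0.00375 and 0.00138), and XAV and FAX became calls at 1.20 and 1.31 (5.1e-08 and 9.36e-09). With all naive libraries these last 6 differences did not pass.

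The 3 paralogs of SALL4, also zinc finger genes, all rose at day 8 in N2B27, E8 and mTeSR (3 of 3 called in each, beside 23.9%, 27.5% and 25.1% of all genes). SALL2 went from 20.5 ± 2.94 CPM (SD, n = 6) in naive cells to 115 ± 11.1 CPM (SD, n = 2) in N2B27, 139.9 ± 1.57 CPM (SD, n = 2) in E8 and 153 ± 5.42 CPM (SD, n = 2) in mTeSR. The summed level of the 3 paralogs was 22.2 to 35 CPM in naive cells and 231 to 245 CPM at day 8 of mTeSR.

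PRDM14 (chr8:70051651-70071693, minus strand) fell most among the 8. In naive libraries it lay between 19.4 and 40.8 CPM with a median of 34.4. In N2B27 it read 38 and 27.5 CPM at day 2, 31.3 and 29.4 CPM at day 3, 17.8 to 23.7 CPM in the 4 libraries of day 4, 7.29 and 8.06 CPM at day 6 and 6.39 and 9.57 CPM at day 8. The last 2 days thus lay below every naive library. Its log2 fold change was -2.10 ± 0.26 (SE, adjusted p = 3.31e-08) at day 6 and -2.03 ± 0.25 (SE, adjusted p = 4.26e-08) at day 8, a 4.3-fold and 4.09-fold lower level. In E8 the gene was at 14.4 and 10.4 CPM at day 8 (-1.40 ± 0.24 SE, adjusted p = 8.38e-06), and in mTeSR at 16 and 20.4 CPM (-0.86 ± 0.23 SE, adjusted p = 0.00272), the latter under the fold threshold. Against the Ex1 naive libraries alone the mTeSR value was -1.04, a call, and without replicate 2 of mTeSR day 8 it was -1.05. In E8 PRDM14 did not fall steadily: day 2 read 20.5 and 15.8 CPM and day 3 34 and 26.8 CPM, without overlap. Both libraries of E8 day 2 and replicate 1 of day 3 had low library scores, and with the score as a covariate the changes from naive cells at days 2 and 3 were -0.99 and -0.18. Against the Ex1 naive libraries the change at day 2 of E8 was -1.05, a call (adjusted p = 0.000107). Without replicate 1 of E8 day 2 it was -1.05, and without replicate 1 of mTeSR day 6 it was -1.15 there, both then past the fold threshold, beside -0.87 and -0.82 with all libraries.

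Of 4 genes taken as partners or relatives of PRDM14, all were tested. CBFA2T2, the co-repressor that PRDM14 binds, fell from 119 ± 42.3 CPM (SD, n = 6) to 23.3 ± 1.23 CPM (SD, n = 2) at day 8 of N2B27, 18.1 ± 4.61 CPM (SD, n = 2) of E8 and 30.7 ± 0.316 CPM (SD, n = 2) of mTeSR (log2 fold change -2.35 ± 0.24 (SE), -2.71 ± 0.25 (SE) and -1.96 ± 0.24 (SE), each called). PRDM1, another member of the PRDM family, fell at day 8 of E8 (-2.73 ± 0.26 SE) and of mTeSR (-1.74 ± 0.24 SE), and was not called in N2B27. In N2B27, E8 and mTeSR at day 8, 1, 2 and 2 of the 4 were called lower and 1 each higher, beside calls in either direction for 23.9%, 27.5% and 25.1% of all genes. TFAP2C was called in none of the 3.

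ZFP42 rose a little and then fell in E8 and in N2B27. Naive libraries lay between 125 and 186 CPM with a median of 162, day 2 of E8 read 264 and 234 CPM, and day 8 read 131 and 122 CPM in E8, 103 and 122 CPM in N2B27 and 104 and 97.7 CPM in mTeSR. The day 2 pair of E8 was above, and the N2B27 and mTeSR pairs of day 8 below, every naive library. It differed from naive cells by 0.64 ± 0.11 (SE, adjusted p = 1.25e-05) at day 2 of E8 and -0.66 ± 0.12 (SE, adjusted p = 2.24e-05) at day 8 of mTeSR. Both libraries of E8 day 2 had low library scores, and with the score as a covariate the value there was 0.51 (adjusted p = 0.0109). At days 6 and 8 all 6 comparisons had the gene lower with an adjusted p under 0.05, from -0.29 to -0.66, and none passed the fold threshold. In N2B27 ZFP42 read 193.6 to 194.5 CPM at day 2 and 187 to 199 CPM at day 3, above every naive library. Day 2 of N2B27 was 0.28 against all naive libraries (edgeR, adjusted p under 0.05) and 0.16 against those of Ex1 (adjusted p = 0.166).

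LIN28A and LIN28B moved in opposite directions at day 8. LIN28A lay between 218 and 325 CPM with a median of 256 in naive libraries. It read 558 and 533 CPM at day 6 of N2B27, 536 and 515 CPM at day 2 of E8, 526 and 519 CPM in XAV, and reached 689 and 691 CPM at day 8 of mTeSR. All 32 differentiating libraries were above all 6 naive ones. Its log2 fold change ran from 0.88 ± 0.10 (SE) at day 4 of E8 (adjusted p = 9.17e-09) to 1.39 ± 0.10 (SE) at day 8 of mTeSR (8.2e-14). It passed an adjusted p of 0.05 in 15 of 15 comparisons and the fold threshold in 7, and since all 15 values lie between 0.88 and 1.39, small shifts decide which are calls: without replicate 1 or replicate 2 of PXGL_serum the values at days 3 and 6 of E8 were between 0.97 and 0.99, and with the Ex1 naive libraries only those at days 2 and 3 of N2B27, days 2 and 4 of E8 and day 4 of mTeSR were between 1.01 and 1.13. Against the naive pair of Ex2 alone, the values of XAV and FAX were smaller but still above 0, 0.74 and 0.67, from 0.99 and 0.91 (adjusted p = 2.19e-07 and 1.41e-06). Without replicate 2 of PXGL_Geltrex in Ex2, day 4 of N2B27, mTeSR, XAV and FAX and day 2 of E8 lay between 1.01 and 1.11. With replicate 1 of that pair left out, XAV was at 1.03 and day 2 of E8 at 1.03, and the latter was 1.07 without replicate 2 of E8 day 2.

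LIN28B, with the 4 let-7 seed matches, lay between 329 and 467 CPM with a median of 454 in naive libraries. It read 550.5 and 485 CPM at day 3 of N2B27, its highest pair, and 331 and 306 CPM at day 8. At day 8 of E8 it was at its lowest, 260.2 and 237 CPM, below all other libraries. The log2 fold change at day 8 was -0.42 ± 0.11 (SE, adjusted p = 0.00132) in N2B27, -0.78 ± 0.11 (SE, adjusted p = 2.86e-07) in E8 and -0.35 ± 0.11 (SE, adjusted p = 0.00664) in mTeSR, under the fold threshold in each. LIN28A was called higher at these same 3 comparisons. With the Ex1 naive libraries only, LIN28B at day 8 was at -0.53, -0.89 and -0.46 in N2B27, E8 and mTeSR. It was then also lower at day 6 of N2B27 (-0.20), E8 (-0.43) and mTeSR (-0.26) and day 4 of E8 (-0.25), each with an adjusted p under 0.05 (edgeR). Day 3 of N2B27 passed with all naive libraries but not with those of Ex1 (0.17). FAX against the Ex2 naive pair was higher (0.26, adjusted p = 0.0267).

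Of 18 other genes of this axis (let-7 processing enzymes, the LIN28-recruited uridylyl transferases and known let-7 targets), 15 were tested. At day 8, 3 were called higher in N2B27, 3 in E8 and 4 in mTeSR, and none lower, beside 23.9%, 27.5% and 25.1% of all genes in either direction. The list medians were 0.39, 0.30 and 0.56 beside -0.03, 0.00243 and -0.02 for all genes. HMGA2, a chromatin protein and let-7 target, rose from 14.9 ± 5.39 CPM (SD, n = 6) to 247 ± 20.6 CPM (SD, n = 2) in N2B27, 193 ± 3.64 CPM (SD, n = 2) in E8 and 207 ± 7.17 CPM (SD, n = 2) in mTeSR. MYC, another target, rose from 1.78 ± 1.23 CPM (SD, n = 6) to 25.7 ± 5.52 CPM (SD, n = 2) in N2B27 and 33.2 ± 2.63 CPM (SD, n = 2) in E8. IGF2BP1, an RNA-binding protein and target, rose in N2B27 (1.22 ± 0.12 SE) and mTeSR (1.09 ± 0.13 SE). The enzymes DROSHA, DICER1, TUT4, TUT7 and DIS3L2 were called at none of these 3 comparisons, whereas DGCR8, the DROSHA partner, was called higher in E8 (1.01 ± 0.23 SE).

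The 8 factors can be set beside 19 other genes used as general pluripotency markers, all tested. Of these, 12 were called higher at day 2 of N2B27, 9 at day 8 of N2B27, 11 at day 8 of E8 and 11 at day 8 of mTeSR, with 1 called lower (NR6A1 in E8, named after its value was seen). Of all genes, 16.2%, 23.9%, 27.5% and 25.1% were called in these comparisons. The median log2 fold change of the 19 was 0.81 at day 8 of N2B27, 1.65 of E8 and 1.58 of mTeSR, while that of the 8 factors was -0.37, -0.18 and 0.04 and that of all genes -0.03, 0.00243 and -0.02. PODXL, which carries the TRA-1 surface antigens, went from 27.9 ± 7.10 CPM (SD, n = 6) to 657 ± 17.6 CPM (SD, n = 2) in N2B27 and 908 ± 55.2 CPM (SD, n = 2) in E8. USP44, a deubiquitinase of stem cells, went from 10.4 ± 6.14 CPM (SD, n = 6) to 116 ± 0.131 CPM (SD, n = 2) and 296 ± 1.34 CPM (SD, n = 2). The list, like the 8 factors, was chosen with earlier results of these data known, so its direction is not independent evidence.

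The next question was whether the media differed on the same day within Ex1, and E8 and mTeSR were each set against N2B27. SOX2 was higher in both supplemented media from day 4 on, PRDM14 was higher in mTeSR at days 6 and 8, and NANOG was lower in E8 at days 2 and 3. Between E8 and N2B27, 0, 1, 0, 0 and 0 of the 8 genes were called at days 2, 3, 4, 6 and 8, beside 4.55%, 1.68%, 2.49%, 5.28% and 7.29% of all genes. Between mTeSR and N2B27, 0, 1 and 1 were called at days 4, 6 and 8, beside 1.58%, 2.62% and 3.8%. Between mTeSR and E8 none was called on these days, beside 0.084%, 1.1% and 5.31% of all genes. In edgeR's test 0, 0 and 3 members (ZFP42, LIN28A and LIN28B) had an adjusted p under 0.05 there, beside 0.222%, 2.66% and 14.1% of all genes.

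SOX2 at day 4 read 237 and 229 CPM in N2B27 of Ex1, 363 and 353 CPM in E8 and 334 and 339 CPM in mTeSR, with no overlap between N2B27 and the others. On the log2 scale, E8 exceeded N2B27 by 0.62, 0.42 and 0.65 at days 4, 6 and 8, with an SE of 0.11 to 0.12 (adjusted p = 0.000607, 0.0104 and 0.000111). The excess of mTeSR over N2B27 was 0.53, 0.43 and 0.77 on these days, with the same range of SE (adjusted p = 0.00468, 0.0155 and 2.6e-05). At days 2 and 3 E8 and N2B27 differed by -0.23 ± 0.11 (SE) and 0.07 ± 0.11 (SE), neither past the threshold. The course of SOX2 over the 5 days differed between E8 and N2B27 in a test of the interaction (adjusted p = 0.000717).

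NANOG was lower in E8 than in N2B27 by 0.50 at day 2 and 0.47 at day 3 on the log2 scale (SE 0.11 and 0.11, adjusted p = 0.00191 and 0.00618), while at day 8 the difference was 0.20 ± 0.11 (SE) (adjusted p = 0.200). The pairs of day 3 read 1310.1 and 1249 CPM in N2B27 and 796 and 1051 CPM in E8. Of the 4 E8 libraries of these days, 3 had low library scores, as had replicate 2 of N2B27 day 2. At day 8 mTeSR held 998 and 1094 CPM and N2B27 802 and 721 CPM, a difference of 0.46 ± 0.11 (SE, adjusted p = 0.00369). The course over the 5 days differed between E8 and N2B27 (interaction, adjusted p = 0.00588).

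PRDM14 at day 6 read 7.29 and 8.06 CPM in N2B27, 14.2 and 12.3 CPM in E8 and 22.8 and 14.9 CPM in mTeSR, 3 ranges with no overlap. The mTeSR against N2B27 difference was 1.29 ± 0.26 (SE, adjusted p = 0.00159) at day 6 and 1.17 ± 0.27 (SE, adjusted p = 0.00348) at day 8, both called. Without replicate 1 of mTeSR day 6 the first was 0.95 (adjusted p = 0.0755), and without replicate 1 of N2B27 day 8 or replicate 2 of mTeSR day 8 the second was 0.93 or 0.98 (0.0771 and 0.0845), no longer past the threshold. E8 against N2B27 gave -0.86 ± 0.24 (SE, adjusted p = 0.0132) at day 2 and 0.78 ± 0.28 (SE, adjusted p = 0.0505) at day 6. The former was -1.04 without replicate 2 of N2B27 day 2 and -1.05 without replicate 1 of E8 day 2, then past the fold threshold, and the interaction over the 5 days had an adjusted p of 0.0102. Without replicate 1 of N2B27 day 2 or replicate 2 of E8 day 2 that p was 0.0546 or 0.0691.

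POU5F1 was called between E8 and N2B27 at day 3 (1.19 ± 0.29 SE, adjusted p = 0.0122). The call was not kept when some single libraries were left out or with the score as a covariate. Leaving out replicate 1 of E8 day 3 gave a difference of 0.39 and leaving out replicate 1 of N2B27 day 3 one of 1.04 (adjusted p = 0.523 and 0.166). At day 2 the difference was 0.78 ± 0.29 (SE, adjusted p = 0.0658), and without replicate 2 of N2B27 day 2 it was 1.47 (0.00311). With the score as a covariate the differences at days 2, 3, 6 and 8 were 0.54, 0.80, 0.63 and 0.56, each with an adjusted p under 0.05 and under the fold threshold.

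**Figure D4:**
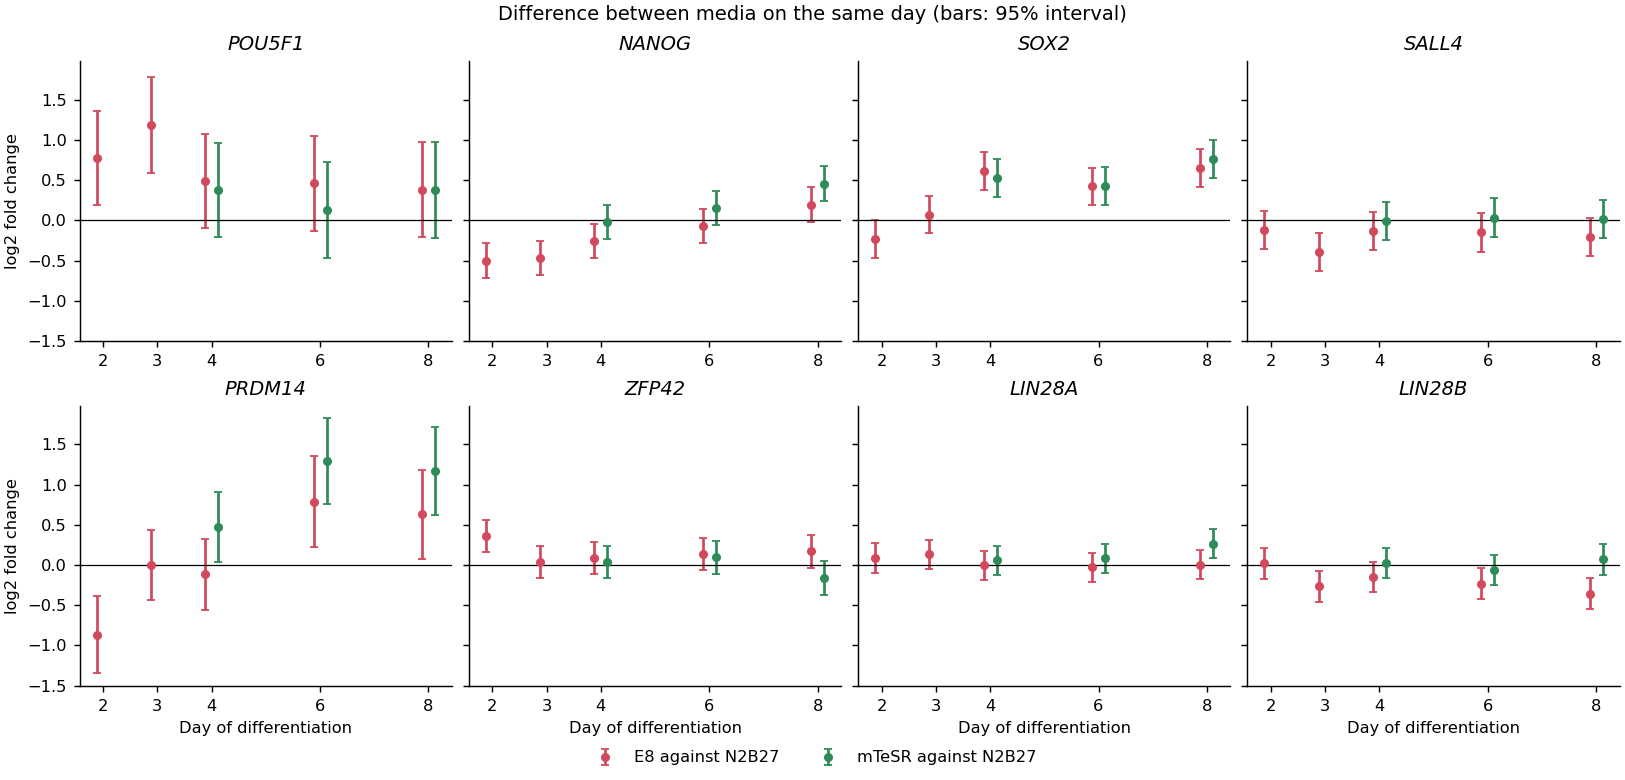
Log2 fold change of each gene in E8 (red) and mTeSR (green) against N2B27 on the same day of Ex1, with 95% intervals from the fit of 19 groups. SOX2 lies above 0 in both media from day 4 on (0.42 to 0.77), PRDM14 in mTeSR at days 6 and 8 (1.29 and 1.17), and the intervals of POU5F1 are the widest.

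SALL4 was lower in E8 at day 3 (-0.39 ± 0.12 SE, adjusted p = 0.0420), ZFP42 was higher in E8 at day 2 (0.36 ± 0.10 SE, adjusted p = 0.0127) and LIN28B was lower in E8 at day 8 (-0.35 ± 0.09 SE, adjusted p = 0.00720), each under the fold threshold. Replicate 1 of E8 day 3, in the SALL4 comparison, had a low library score. So did both libraries of E8 day 2 and replicate 2 of N2B27 day 2, in that of ZFP42. At day 8 mTeSR differed from E8 by 0.42 ± 0.09 (SE) for LIN28B, 0.26 ± 0.09 (SE) for LIN28A and -0.33 ± 0.10 (SE) for ZFP42 (adjusted p = 0.00246, 0.0450 and 0.0272). Over the whole course 3 of the 8 genes (NANOG, SOX2 and PRDM14) passed the interaction test of E8 and N2B27, beside 11% of all genes. None passed that of N2B27, E8 and mTeSR over days 4, 6 and 8, beside 3.24% of all genes, so for SOX2 and PRDM14 a constant offset between N2B27 and the supplemented media over these days was not told apart from a changing one. Markers of other lineages also differed between these cultures at day 8: 5 endoderm or hypoblast genes summed to 152 to 171 CPM in N2B27, 82.3 to 85.2 CPM in mTeSR and 18.1 to 22.7 CPM in E8, and 3 mesoderm or streak genes to 217 to 285 CPM, 146 to 192 CPM and 35.2 to 37.9 CPM, from 0.683 to 4.21 CPM and 2.73 to 21.8 CPM in naive cells. Trophectoderm or amnion markers (8 genes) summed to 79.5 to 97.2 CPM, 15.1 to 20.4 CPM and 16.5 to 21.9 CPM in the same order, and to 9.96 to 18.6 CPM in naive cells. For 4 fibroblast genes the sums were 24.5 to 29.3 CPM, 17.9 to 20.1 CPM and 34.1 to 39.1 CPM, beside 1.12 to 3.07 CPM, and for 2 neural genes the highest sum in any library was 13.3 CPM. The part of these markers in the differences of the 8 genes was not tested.

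Within N2B27 7 of the 8 genes were lower at day 8 than at day 2 with an adjusted p under 0.05, which 44.4% of all genes had in either direction, LIN28A being the exception (0.21 ± 0.09 SE, adjusted p = 0.0504). PRDM14 (-2.02 ± 0.24 SE, adjusted p = 4.82e-08) and POU5F1 (-1.47 ± 0.29 SE, adjusted p = 0.000143) were called, 2 of 8 genes beside 21.9% of all genes. In E8 1 of 8 was called, POU5F1 (-1.86 ± 0.30 SE, adjusted p = 4.54e-06), beside 28.2%, and ZFP42 (-0.97 ± 0.10 SE), LIN28B (-0.94 ± 0.09 SE) and SALL4 (-0.78 ± 0.12 SE) were lower with an adjusted p under 0.05, which 50.3% of all genes had. In mTeSR from day 4 to day 8 none was called beside 9.25% of all genes, but LIN28A was higher by 0.45 and PRDM14, ZFP42 and LIN28B lower by 0.80, 0.66 and 0.38 (adjusted p under 0.05 in each, beside 23.1% of all genes). Of the day 2 libraries from which POU5F1 fell, both of E8 and replicate 2 of N2B27 had low scores. With the score as a covariate the POU5F1 changes were -0.53 in N2B27 (edgeR, adjusted p = 0.0437) and -0.51 in E8 (adjusted p = 0.126). Without replicate 2 of N2B27 day 2 the change in N2B27 was -0.79. With POU5F1 and POU5F1B summed the changes were -0.87 in N2B27, no longer a call, and -1.11 in E8. When replicate 1 of E8 day 8 was left out, ZFP42 and LIN28B came to -1.02 and -1.01, past the fold threshold, and ZFP42 to -1.08 without replicate 2 of E8 day 2.

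In Ex2 the additions to N2B27 were compared at day 4. None of the 8 genes was called in XAV against N2B27, in FAX against N2B27 or in FAX against XAV, beside 0.57%, 0.336% and 0.012% of all genes, and none had an adjusted p under 0.05 (edgeR). The lowest was 0.0585 for PRDM14 in FAX against N2B27. PRDM14 read 19.8 and 17.8 CPM in N2B27, 29.2 and 27.1 CPM in XAV and 27.5 and 40.7 CPM in FAX, where both supplemented pairs lay above the N2B27 pair. Its difference from N2B27 was 0.86 ± 0.22 (SE) in FAX, with a 95% interval of 0.40 to 1.32, and 0.58 ± 0.22 (SE) in XAV, with an interval of 0.12 to 1.04. The first was 1.11 without replicate 1 of FAX (adjusted p = 0.0375), a call. NANOG read 1286 and 1190.4 CPM in N2B27 of Ex2, below the XAV and FAX pairs, with differences of 0.22 ± 0.10 (SE) and 0.19 ± 0.10 (SE). For the 6 genes other than POU5F1 and PRDM14, the 95% intervals of all 3 comparisons lay between -0.29 and 0.43 on the log2 scale, and for POU5F1 they were -0.65 to 0.52, -0.88 to 0.30 and -0.81 to 0.37.

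Naive cells on Geltrex and on serum coating were compared within Ex1 as a check of the substrate. None of the 8 genes was called, beside 0.048% of all genes, and none had an adjusted p under 0.05, the lowest being 0.0868 for SALL4. Its difference was -0.42 ± 0.12 (SE) with a 95% interval of -0.66 to -0.18, and the intervals of the other 5 genes apart from POU5F1 and PRDM14 fell between -0.39 and 0.38. For POU5F1 the interval was -0.97 to 0.21 and for PRDM14 -0.49 to 0.33.

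The experiments, in contrast, differed in naive cells. On Geltrex, SALL4 was lower in Ex2 than in Ex1 by 1.10 on the log2 scale (SE 0.12, adjusted p = 2.41e-07), the 1 call among the 8 genes beside 4.67% of all genes, and -0.98 without replicate 1 of PXGL_Geltrex, just under the fold threshold. SOX2 (-0.61 ± 0.12 SE), PRDM14 (-0.65 ± 0.22 SE), NANOG (-0.43 ± 0.11 SE), LIN28B (-0.35 ± 0.09 SE) and ZFP42 (-0.32 ± 0.10 SE) were also lower and LIN28A higher (0.29 ± 0.09 SE), each with an adjusted p under 0.05. POU5F1 was the exception (0.04 ± 0.29 SE, adjusted p = 0.960). At day 4 of N2B27 none of the 8 was called between the experiments, beside 1.01% of all genes, and none had an adjusted p under 0.05 (the lowest was 0.377, for LIN28B). The change from naive cells on Geltrex to day 4 therefore differed between the experiments for 3 genes, beside 11.7% of all genes. As a signed log2 value it was higher in Ex2 by 0.99 ± 0.17 (SE) for SALL4, 0.65 ± 0.16 (SE) for SOX2 and 0.56 ± 0.15 (SE) for NANOG (test of the interaction, adjusted p = 0.000181, 0.00869 and 0.0119). In mean CPM, SALL4 went from 313 to 365 in Ex1 and from 146 to 339 in Ex2. NANOG went from 1117 to 1131 in Ex1 and from 829 to 1238 in Ex2. SOX2 went down from 266 to 233 in Ex1 and up from 174 to 240 in Ex2. Without replicate 1 of N2B27 day 4 of Ex2 or replicate 1 of its naive pair the p of NANOG was 0.0597 or 0.0810, and without replicate 2 of the naive pair that of SOX2 was 0.0501. Whatever else differed between the experiments, including the day that the library names of the Ex2 naive pair give, cannot be told apart from the experiment itself.

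**Figure D5:**
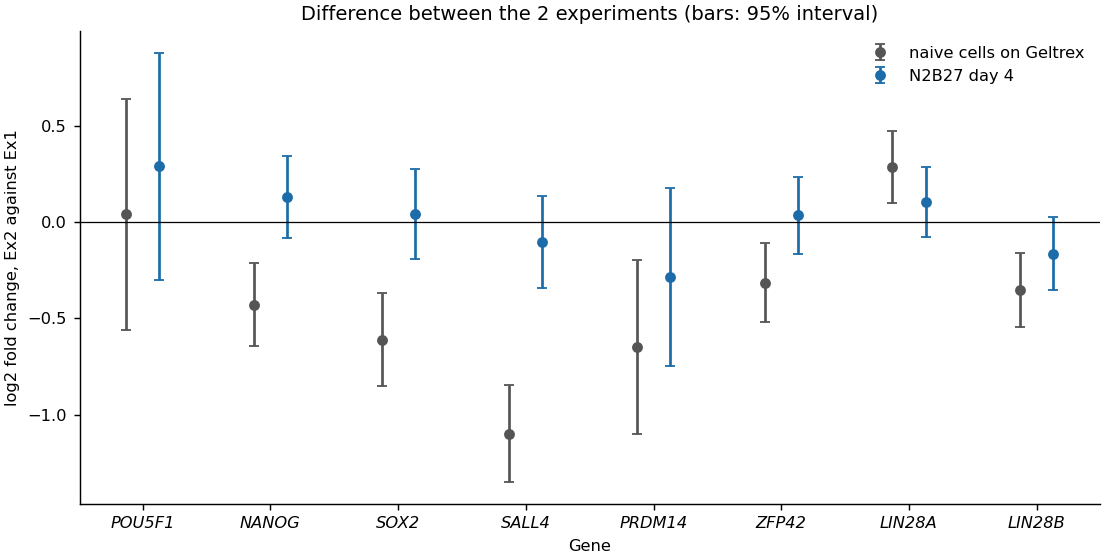
Log2 fold change of each gene in Ex2 against Ex1, in naive cells on Geltrex (grey) and at day 4 of N2B27 (blue), with 95% intervals. In naive cells SALL4 lies lowest (-1.10) and LIN28A is the 1 gene whose interval is above 0, whereas all 8 intervals of day 4 include 0.

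Ordered by mean CPM over the 16 levels, each gene had 1 to 5 steps at which neighbouring levels did not overlap and 10 to 14 at which they did. For POU5F1 the 1 separate step was that from E8 day 2 to the level below it. For LIN28A they included the top (mTeSR day 8) and the bottom (naive), with a 2.61-fold range of means. For LIN28B the 3 highest levels (N2B27 day 3, E8 day 2 and N2B27 day 2) did not overlap each other, and E8 day 8 stood alone at the bottom. PRDM14 had the next widest range of means after POU5F1, 4.44-fold from FAX to N2B27 day 6, beside 4.75-fold for POU5F1 and 1.86-fold to 2.61-fold for the other 6.

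Genes with the most similar pattern were sought among 7071 genes at 20 CPM or more, by Pearson's r of mean log2 CPM over the 16 levels, as a description in which all points share libraries and scaling. For LIN28A they were FZD7 (0.959), VCAN (0.955) and MYO10 (0.948), for PRDM14 CEMIP2 (0.948), ITFG2 (0.930) and NUP50 (0.926), for ZFP42 TMX2 (0.969), LY6E (0.963) and HSD17B10 (0.955), for LIN28B CCDC137 (0.930), TMOD3 (0.920) and ARFGEF2 (0.914) and for SALL4 G3BP2 (0.967), ADIPOR1 (0.926) and ZNF826P (0.925). For POU5F1 they were STARD3 (0.963), MTRNR2L8 (0.943) and MTRNR2L12 (0.942), the last 2 being nuclear copies of mitochondrial ribosomal RNA sequence. For NANOG they were FTSJ3 (0.937), AC011447.3 (0.933) and ZNF587B (0.907), and for SOX2, whose nearest pattern was the least close, MLEC (0.836), CXADR (0.808) and GOLIM4 (0.782). Among the members themselves, r over the 16 levels was 0.780 between SALL4 and LIN28B, 0.770 between POU5F1 and ZFP42, and -0.368 between LIN28A and LIN28B.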

How the data were processed

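Shef6 cells were profiled by QuantSeq 3′ RNA sequencing in 38 libraries. Per the labels and the study's methods, the authors ran FastQC 0.11.9, STAR 2.7.10a and Salmon 1.9.0 against hg38 and deposited gene counts, which are whole numbers and not normalised. The count table lists 57133 genes. Library totals ran from 3038046 to 5612354, so that 3 counts, the detection floor, equal 0.520 to 1.06 CPM. CPM values were computed from the counts with TMM-scaled library totals.

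Genes were kept by filterByExpr (16674 genes, 99.6% of counts) and tested with edgeR 4.0.16 (quasi-likelihood F-tests, R 4.3.3, limma 3.58.1) over all 38 libraries: a fit of 16 levels of medium and day for comparisons with the 6 naive libraries, and a fit of 19 groups for all others. P-values were adjusted by Benjamini-Hochberg over all genes tested, and a call needed an adjusted p under 0.05 and an absolute log2 fold change above 1, or for interactions the adjusted p alone. The code was tested on simulated data. The 8 members were described in every comparison. From the lists of partners, paralogs and pathway genes, values are given for at most 4 called genes a list at 20 CPM or more, and up to 3 genes of most similar pattern for each member. Members and lists were chosen with earlier results of these data known.

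Alternatives were other scalings and filters, DESeq2 1.42.0, fits to the compared libraries alone, a replicate block, a covariate for the library score or the experiment, naive controls restricted to the matching experiment, each library left out, and, added after seeing the data, POU5F1 and POU5F1B summed. Replicate numbers did not pair libraries across groups. Transcript ends were compared with blastn 2.17.0.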

Additional observations from a re-analysis of the deposited data

Results flagged for a closer look

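In groups of 4 or more libraries, 16 tests for a library far from the others were run, of which chance gives about 1 in 20. They found 2. POU5F1 stood at 560.5 CPM in replicate 1 of PXGL_serum, above the other 5 naive libraries, with a gap of 0.659 of the group's range. ZFP42 stood at 150.9 CPM in 1 of the 4 libraries of N2B27 day 4 (replicate 2 of Ex1), below the other 3, with a gap of 0.864 of the range.

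Differences between groups were tested by interaction in edgeR. The course over 5 days differed between E8 and N2B27 for NANOG (adjusted p = 0.00588), SOX2 (0.000717) and PRDM14 (0.0102). The change from naive cells to day 4 of N2B27 differed between the experiments for NANOG (0.0119), SOX2 (0.00869) and SALL4 (0.000181).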

How the results depend on the processing

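Over the days of each comparison, the numbers of member calls were 5 of 40 in N2B27, 7 of 40 in E8, 2 of 24 in mTeSR and 0 of 8 in XAV and in FAX against naive cells. Between media they were 1 of 40 for E8 and 2 of 24 for mTeSR against N2B27, and 3 of 24 for day 8 against the first day. With naive libraries of the same experiment the counts became 7 in N2B27, 10 in E8, 4 in mTeSR, 1 in XAV and 1 in FAX, and with the study's own filter 1 in XAV. For E8 against N2B27 the count was 0 when compared libraries were fitted alone, with the library score as a covariate, or with POU5F1 and POU5F1B summed, and with the score it was 1 for day 8 against the first day.

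Leaving out 1 library gave 4 to 6 calls in N2B27, 5 to 8 in E8, 2 to 3 in mTeSR and 0 to 1 in XAV (1 without replicate 1 or replicate 2 of naive Ex2) and in FAX (1 without replicate 2 of that pair). It gave 0 to 3 for E8 against N2B27, 1 to 2 for mTeSR against N2B27, 0 to 1 for XAV and FAX in Ex2, 2 to 5 for day 8 against the first day and 0 to 1 for the naive and N2B27 day 4 controls. The interactions over the course of E8 and N2B27 and between the experiments gave 2 to 3 each.

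Of 107 member differences past the adjusted p, none of 1075 values under other settings and none of 730 with a library left out changed sign; 12 and 18 lost a call and 23 and 17 gained one. Of 179 differences not past it, 73 changed sign in at least 1 setting. Without a filter, the course of POU5F1 in E8 and N2B27 passed (adjusted p = 1.97e-05, from 0.503), and the cause was not tested. Library totals moved the median of all genes at day 2 of E8 to -0.15. The replicate block left every count of calls as it was (5 in N2B27, 7 in E8), and across 171 pairs of groups the deviations of replicate 1 correlated from -0.594 to 0.500 with a median of 0.00283, so the numbers were not taken as pairs. Depth limits PRDM14 most, at 29 counts in its lowest library.

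Counts of calls over all genes moved by more than 1.5 times in these cases, with the count as reported in parentheses. With library totals they were 9 for mTeSR against E8 day 4 (14). With no filter they were 58 for mTeSR against E8 day 4 (14), 88 for FAX against N2B27 day 4 (56), 23 for FAX against XAV day 4 (2), 106 for naive Geltrex against serum coating (8) and 1005 for course of N2B27, E8 and mTeSR (541). With DESeq2 they were 488 for E8 against N2B27 day 2 (758), 166 for E8 against N2B27 day 3 (280), 263 for E8 against N2B27 day 4 (415), 162 for mTeSR against N2B27 day 4 (263), 290 for mTeSR against N2B27 day 6 (437), 418 for mTeSR against N2B27 day 8 (634), 121 for mTeSR against E8 day 6 (184), 1 for FAX against XAV day 4 (2) and 102 for N2B27 day 4 Ex2 against Ex1 (168). With compared libraries fitted alone they were 409 for E8 against N2B27 day 2 (758), 6 for E8 against N2B27 day 3 (280), 657 for E8 against N2B27 day 4 (415), 799 for E8 against N2B27 day 8 (1216), 345 for mTeSR against E8 day 6 (184), 450 for mTeSR against E8 day 8 (885), 165 for XAV against N2B27 day 4 (95), 133 for FAX against N2B27 day 4 (56), 24 for FAX against XAV day 4 (2), 1 for naive Geltrex against serum coating (8) and 296 for N2B27 day 4 Ex2 against Ex1 (168). With the library score as a covariate they were 1702 for N2B27 day 2 against naive (2694), 2469 for E8 day 2 against naive (4107), 30 for mTeSR against E8 day 4 (14) and 2516 for E8 day 8 against day 2 (4698).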
